A study of Homo sapiens with 4 samples.

Results

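Axon guidance ligands and their receptors were examined in HGC-27 cells, a human gastric carcinoma line, after knockdown of USP47, a deubiquitinase. The genes were chosen by symbol: protein-coding genes of the semaphorin, plexin, ephrin, Eph receptor, Robo, netrin and UNC5 families, SLIT1, SLIT2, SLIT3, NRP1, NRP2 and DCC. This gave 74 of 63568 gene identifiers, and 11 long noncoding RNAs and 1 pseudogene with such symbols were left out. UNC50, a membrane protein of the Golgi and nucleus, and UNC5CL entered by their letters alone, and EFNA4-EFNA3 is a readthrough of 2 neighbouring ephrin genes.

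The cells had been transduced with lentivirus carrying a scrambled shRNA (Control shRNA, 2 libraries) or shRNA against USP47 (USP47 shRNA, 2 libraries) and, per the study's methods, selected with puromycin for stable expression. Poly(A) RNA was sequenced from all 4, and the purpose was to find pathways affected by loss of USP47. The series' text also mentions DMSO vehicle for control cells, which the sample labels do not carry. The labels call the libraries biological duplicates whereas the methods speak of triplicates, and which of the shRNAs against USP47 each knockdown library carries, or whether separate transductions were made, is not given in the sources used here, so p-values measure only the spread between these libraries.

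Guidance cues steer growing axons, and the same molecules act in epithelia, vessels and tumors. Secreted semaphorins mostly signal through a neuropilin and a plexin, and membrane semaphorins mostly bind plexins directly. Ephrins and Eph receptors signal in both directions across cell contacts, Slits repel through Robo receptors, and netrins attract through DCC or neogenin and repel through UNC5 receptors. Netrin-Gs are a separate branch: they are anchored to the membrane by a GPI lipid and bind leucine-rich partners of the LRRC4 family instead of DCC.

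Values per library are given as CPM, counts per 1000000 counts of a library after TMM scaling. USP47 itself stood at 80.0 and 66.1 CPM with Control shRNA and at 36.0 and 21.5 CPM with USP47 shRNA, that is at 49.3% and 29.5% of the control mean. The libraries held between 15649899 and 20140273 counts. Of the markers of gastric and general epithelium, KRT18 and KRT19 had at most 1 count in any library, KRT8 had between 10 and 19 counts and CDH1 between 8 and 28, whereas the mesenchymal genes COL3A1 and VIM had at least 28733 and 7201 counts. These keratins were therefore nearly absent from cells labelled as a carcinoma line. Other markers stood differently: the gastric genes MUC6 and CLDN18 had 71 to 146 and 43 to 66 counts, and the mesenchymal cadherin CDH2 had 3 to 10 counts.

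Most guidance families were expressed, and the sequences before the start of 4 genes that the results turn on are given here as context. NTNG1 had the largest fall and EPHA4 the largest rise among the guidance genes, and SEMA4F and ROBO3 are the 2 called genes whose promoter here holds an E-box of the letters CAGGTG, which the transcriptional repressor Snai1 is known to recognize. Each run is the 250 bases before the outermost start in RefSeq (GRCh38.p14), 5′ to 3′ on the gene's strand, and capitals mark CAGGTG or the GC box GGGCGG on either strand, so that CACCTG and CCGCCC are the same motifs on the other strand. The regions are chr1:107139838-107140087 (plus strand) for NTNG1, chr2:221574203-221574452 (minus strand) for EPHA4, chr2:74653997-74654246 (plus strand) for SEMA4F and chr11:124865182-124865431 (plus strand) for ROBO3.
NTNG1: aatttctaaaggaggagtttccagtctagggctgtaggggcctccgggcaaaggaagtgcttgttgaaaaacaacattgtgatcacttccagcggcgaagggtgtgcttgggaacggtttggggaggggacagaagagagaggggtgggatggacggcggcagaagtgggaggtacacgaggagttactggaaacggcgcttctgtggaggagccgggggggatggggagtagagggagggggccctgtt
EPHA4: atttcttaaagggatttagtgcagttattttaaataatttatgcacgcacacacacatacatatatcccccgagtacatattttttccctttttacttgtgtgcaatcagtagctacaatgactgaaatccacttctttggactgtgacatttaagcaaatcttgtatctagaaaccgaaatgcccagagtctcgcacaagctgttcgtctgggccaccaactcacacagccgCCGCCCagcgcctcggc
SEMA4F: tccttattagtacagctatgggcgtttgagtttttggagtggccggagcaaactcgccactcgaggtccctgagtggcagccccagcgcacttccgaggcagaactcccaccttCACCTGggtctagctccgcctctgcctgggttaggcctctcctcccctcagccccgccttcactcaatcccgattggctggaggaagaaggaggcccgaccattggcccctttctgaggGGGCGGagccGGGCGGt
ROBO3: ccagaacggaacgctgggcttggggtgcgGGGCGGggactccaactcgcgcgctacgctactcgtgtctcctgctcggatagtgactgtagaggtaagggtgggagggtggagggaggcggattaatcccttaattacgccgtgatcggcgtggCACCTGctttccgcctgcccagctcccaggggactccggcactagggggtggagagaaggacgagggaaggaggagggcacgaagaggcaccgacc

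A promoter was given for 63 of the 74 genes. CAGGTG was found in 10 of these 63 (15.9%), against 17.5% of the 27305 genes of the table. It was in 2 of the 13 promoters of genes that fell, in 0 of the 3 of genes that rose, and in 8 of the 47 others. The GC box was found in 74.6% of the guidance promoters against 42.2% of all, and the median GC content of these windows was 65.2% against 57.6%. The 27305 genes were not limited to protein-coding ones, as the guidance genes were. The sets may thus be unlike in kind, and these gaps are not shown to be particular to guidance genes. The box was in 61.5% of the promoters of genes that fell, 66.7% of those that rose and 78.7% of the others. NTNG1 held neither motif in this window, and EPHA4 held a single GC box. A match describes the letters only.

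Levels were compared between genes with the TPM values that the authors deposited, which divide counts by gene length. In control cells 19 of the 74 genes had a mean over 10 TPM, 38 lay between 1 and 10 TPM and 17 lay under 1 TPM. The netrin receptor UNC5B was the highest, at 40.8 ± 1.82 TPM (SD, n = 2 here and for every mean below), followed by PLXNB2 at 36.1 ± 1.30 TPM and the Slit receptor ROBO1 at 33.3 ± 4.90 TPM. The ranges of PLXNB2 and ROBO1 over the 2 control libraries overlapped, and that of UNC5B lay above both.

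The next levels belonged to the receptor tyrosine kinase EPHB4 at 26.4 ± 0.00850 TPM, the GPI-anchored ephrin EFNA5 at 24.9 ± 2.97 TPM and SLIT2 at 20.4 ± 2.55 TPM. None of UNC5B, PLXNB2, ROBO1, EPHB4 and EFNA5 passed the test described below, and SLIT2 did. Values of UNC5B, PLXNB2 and EPHB4 depended on the knockdown library kept. Without USP47 shRNA replicate 1 their log2 fold changes of USP47 shRNA over control were 0.41, 0.50 and 0.32. Without USP47 shRNA replicate 2 these were 0.22, 0.28 and -0.14. Of the 21 genes that passed the test over all libraries, 4 had over 10 TPM in control cells: SLIT2, SEMA6A, NTN3 and EFNA2. DCC, the classical netrin receptor, had 2, 2, 1 and 0 counts in the 4 libraries and was too low to be tested.

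**Figure D1:**
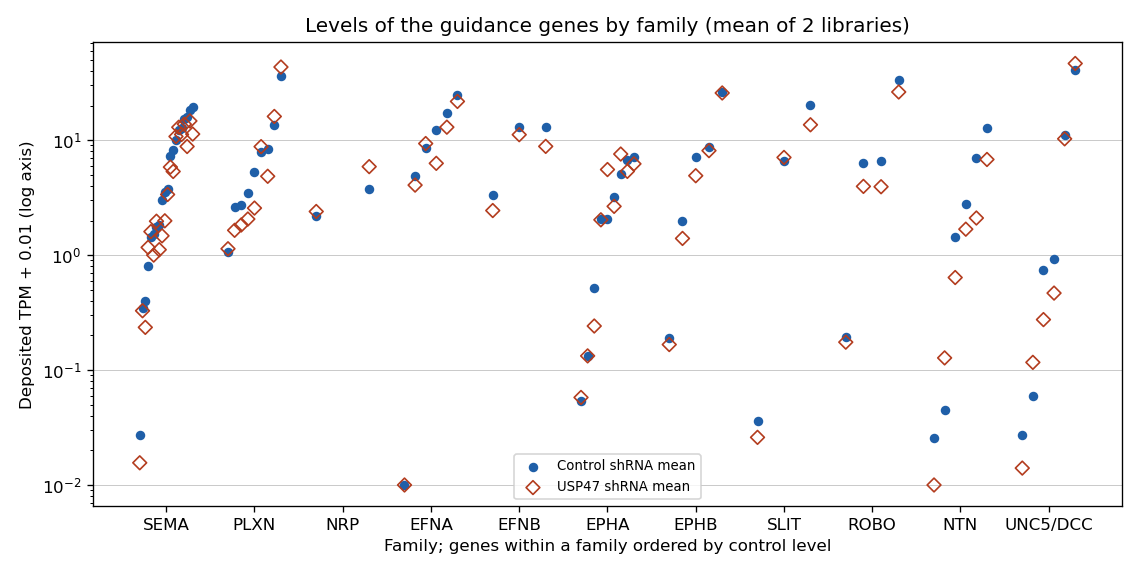
Deposited TPM of the 74 genes by family on a log axis, with 0.01 added so that zeros can be drawn, as the mean of 2 control libraries (filled circles) and of 2 USP47 shRNA libraries (open diamonds), ordered within a family by the control level. UNC5B, PLXNB2 and ROBO1 have the highest control means, and the netrin genes above 1 TPM all have the diamond below the circle.

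Of the 74 genes, 66 had enough counts to be tested, and 21 differed between USP47 shRNA and control in edgeR's quasi-likelihood test at a Benjamini-Hochberg adjusted p under 0.05 over all 21932 genes tested. Of these, 17 fell and 4 rose. In percent of the tested genes, 31.8% of the guidance genes were called against 16.1% of all genes, 25.8% against 9.56% were called lower, and 6.06% against 6.52% were called higher. The 21932 genes were not limited to protein-coding ones, as the guidance genes were. Of 13639 tested protein-coding genes 1634 were called lower and 1173 higher, larger shares than among all genes. The median average log2 CPM was 4.60 over the guidance genes and 3.15 over all genes. The gaps to all genes, here and by family, role and list below, are thus not shown to be particular to guidance genes. The median log2 fold change was -0.17 over the guidance genes and -0.0083 over all genes. As these are bulk RNA values, fewer cells of a kind and less RNA per cell cannot be told apart.

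In 34 of the 66 tested guidance genes (51.5%) each USP47 shRNA library was lower than each control, as in 31.7% of all genes, and in 17 each was higher, as in 29.3% of all genes. The groups overlapped in the other 15. All 21 called genes were free of overlap, as were 30 of the 45 not called. UNC5D was the 1 tested gene whose counts passed the filter on low values in 1 group only.

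Each library was also left out in turn, which leaves a single library in 1 group, assumed to vary like the other group. The number of genes called then moved widely with the library left out, among all genes as well as among the guidance genes. NTNG1, EPHA4, PLXNB1 and UNC5A were called in each of these 4 fits, and the other 17 lost the call in at least 1 of them. No called gene changed direction in them.

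**Figure D2:**
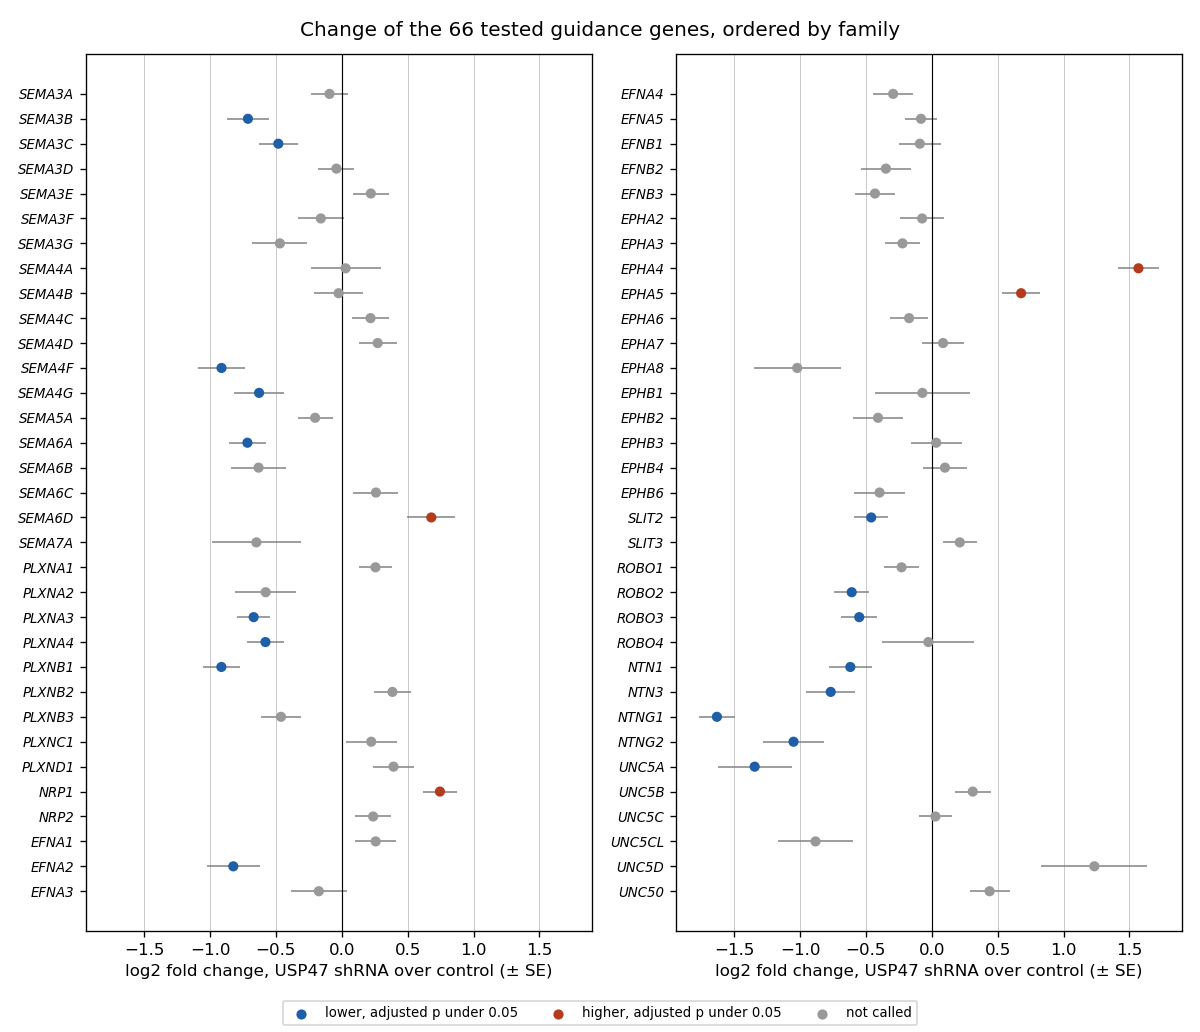
Log2 fold change of USP47 shRNA over control shRNA for the 66 tested genes, ordered by family, with error bars of ± 1 SE and 2 libraries in each group; blue points were called lower, red points called higher and grey points not called. The 4 tested netrin genes all lie left of 0, from -1.63 for NTNG1 to -0.62 for NTN1, and EPHA4 lies farthest to the right at 1.57.

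All 4 tested members of the netrin family fell, against 9.56% of all genes tested. The other 2, NTN4 and NTN5, had at most 6 counts in any library. The summed CPM of the 6 netrin genes was 84.4 in each control library, against 34.4 and 41.0 with USP47 shRNA. The 4 falls came from both branches of the family. Without Control shRNA replicate 1 NTNG1 was the 1 netrin gene still called, and without Control shRNA replicate 2 NTNG1 and NTNG2 were.

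NTNG1 (ENSG00000162631, chr1:107682629-108027545 in GRCh37, plus strand) encodes netrin-G1, which binds LRRC4C on a facing cell. It stood at 47.8 and 46.5 CPM with Control shRNA and at 14.5 and 16.0 CPM with USP47 shRNA, from 811, 913, 301 and 230 counts. The control values are about 3 times the knockdown values, and the spread within each group is small against the gap. The fall was 3.10-fold (log2 fold change -1.63, SE 0.14, adjusted p = 0.00042), and it was the only guidance gene past a test against a minimum log2 change of 1 (adjusted p = 0.0302).

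NTNG2, the second netrin-G, was at 6.43 and 4.79 CPM in control and at 2.45 and 3.00 CPM in knockdown cells (log2 fold change -1.05, SE 0.23, adjusted p = 0.0143). The classical secreted netrin NTN1 was at 12.0 and 14.1 CPM in control and at 8.41 and 8.57 CPM in knockdown cells (log2 fold change -0.62, SE 0.16, adjusted p = 0.0282). NTN3, also secreted, was at 18.1 and 18.8 CPM in control and at 8.90 and 13.0 CPM in knockdown cells (log2 fold change -0.77, SE 0.18, adjusted p = 0.0207). In all 3 genes the lower control library lay above the higher knockdown library. NTN3 had the highest TPM of the family, at 12.7 ± 0.821 in control and 6.79 ± 0.414 in knockdown cells. The DESeq2 Wald test did not call NTN1 (adjusted p = 0.0929).

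Among the netrin receptors 1 of 5 tested genes fell and 0 rose, counting UNC5CL, against 9.56% and 6.52% of all genes. So small a count does not set these receptors apart from all genes. UNC5A, a repulsive netrin receptor that carries a death domain, was at 2.30 and 2.34 CPM in control and at 0.914 and 0.906 CPM in knockdown cells, from 39, 46, 19 and 13 counts. The groups were well apart although the gene was low, with a log2 fold change of -1.34 (SE 0.28, adjusted p = 0.0117). The DESeq2 Wald test did not call it (adjusted p = 0.0933).

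UNC5B, which was far more abundant, was at 198 and 211 CPM in control and at 237 and 270 CPM in knockdown cells (log2 fold change 0.31, SE 0.14, adjusted p = 0.143). UNC5C lay between 82.3 and 92.3 CPM in all 4 libraries. UNC5CL and UNC50, which share the letters, had log2 fold changes of -0.88 and 0.44 and were not called (adjusted p = 0.0591 and 0.0744). UNC5D had 7, 7, 19 and 13 counts and a log2 fold change of 1.23 that missed the threshold (SE 0.40, adjusted p = 0.062). Thus the receptor with the highest level and the one that fell were different genes of the family.

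**Figure D3:**
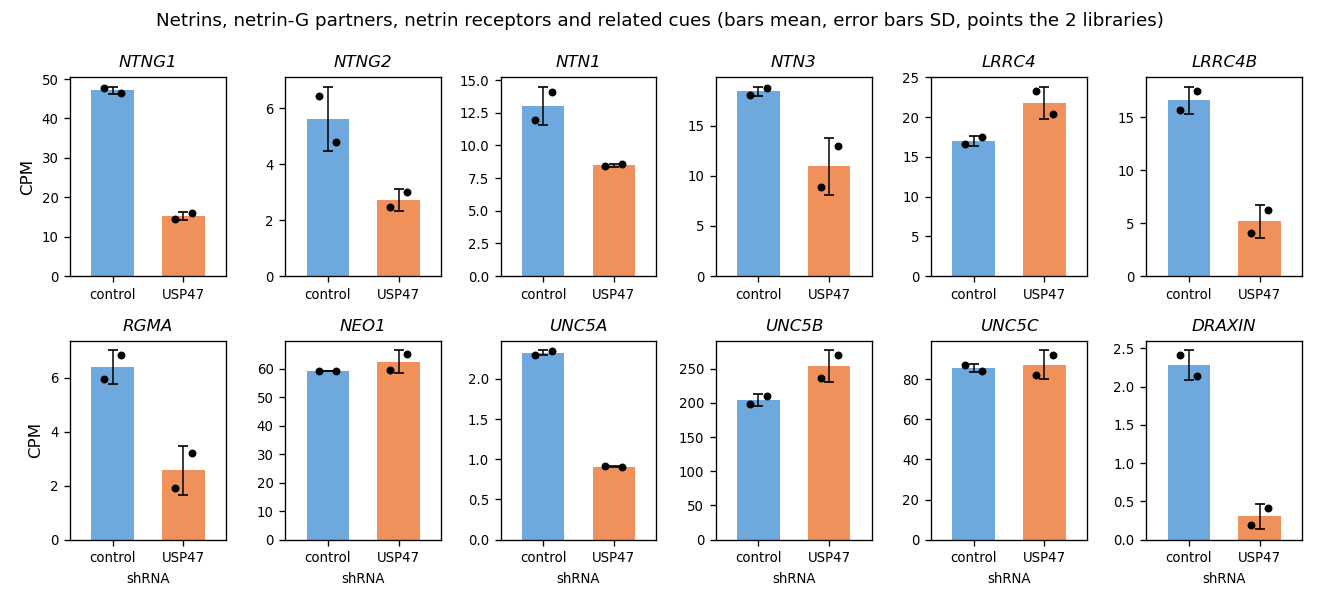
CPM after TMM normalization of netrin-G genes, netrins, the netrin-G partner LRRC4, its relative LRRC4B, netrin receptors and related cues. Bars show the mean, error bars the SD and points the 2 libraries of each group. Each panel has its own axis from 0, and LRRC4C, the partner of NTNG1, is not drawn. NTNG1, NTNG2, NTN1, NTN3, LRRC4B, RGMA, UNC5A and DRAXIN were called lower, and LRRC4, NEO1, UNC5B and UNC5C were not called.

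In the Slit and Robo families 3 of 6 tested genes fell and 0 rose, against 9.56% and 6.52% of all genes. SLIT2, the secreted ligand, was at 148 and 141 CPM in control and at 100 and 110 CPM in knockdown cells (log2 fold change -0.46, SE 0.13, adjusted p = 0.0347). Its receptor ROBO2 was at 84.3 and 74.3 CPM in control and at 48.8 and 55.3 CPM in knockdown cells (log2 fold change -0.61, SE 0.13, adjusted p = 0.0145). Ligand and receptor thus both stood lower in knockdown cells without overlap. ROBO3, which in mammals does not bind Slits, was at 34.1 and 30.5 CPM in control and at 21.0 and 23.1 CPM in knockdown cells (log2 fold change -0.55, SE 0.14, adjusted p = 0.0242).

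The most abundant Robo, ROBO1, was at 274 and 252 CPM in control and at 230 and 219 CPM in knockdown cells and missed the threshold (log2 fold change -0.23, SE 0.13, adjusted p = 0.256). SLIT3 had a log2 fold change of 0.21 (SE 0.13, adjusted p = 0.284), so the 2 tested Slits had opposite signs, a difference that was not tested. ROBO4, an endothelial Robo, had between 15 and 18 counts, and SLIT1 had at most 4 counts and was not tested.

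Among the semaphorins 5 of 19 tested genes fell (26.3%, against 9.56% of all genes) and 1 rose (5.26%, against 6.52%). The median log2 fold change of the 19 was -0.16. The changes were spread over the classes: 2 of 7 secreted class 3 genes and 2 of 6 membrane class 4 genes fell, and of 4 class 6 genes 1 fell and 1 rose. SEMA6A and SEMA6D, the opposite movers of class 6, are transmembrane ligands of A-type plexins. SEMA6A was at 127 and 126 CPM in control and at 69.2 and 85.4 CPM in knockdown cells (log2 fold change -0.72, SE 0.14, adjusted p = 0.0087). SEMA6D was at 5.19 and 4.64 CPM in control and at 7.36 and 8.43 CPM in knockdown cells (log2 fold change 0.68, SE 0.18, adjusted p = 0.0305). The gene that fell was thus far above the one that rose in level, at 15.9 ± 1.51 against 0.789 TPM in control cells. SEMA6C was not called (log2 fold change 0.26, SE 0.17, adjusted p = 0.322). SEMA6B had a log2 fold change of -0.63 but differed more between its libraries and was not called (SE 0.21, adjusted p = 0.0624).

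In class 3, whose members mostly signal through neuropilins, SEMA3B was at 15.9 and 13.8 CPM in control and at 8.75 and 9.34 CPM in knockdown cells (log2 fold change -0.71, SE 0.16, adjusted p = 0.0147). SEMA3C was at 38.7 and 35.9 CPM in control and at 23.8 and 29.8 CPM in knockdown cells (log2 fold change -0.48, SE 0.15), with an adjusted p of 0.0490 that lay at the threshold. SEMA3F, the class 3 gene with the highest TPM, was at 61.0 and 67.1 CPM in control and at 46.8 and 68.2 CPM in knockdown cells, so the groups overlapped (adjusted p = 0.56). SEMA3A, SEMA3D, SEMA3E and SEMA3G were not called either, with log2 fold changes of -0.09, -0.04, 0.22 and -0.47. SEMA3B and SEMA3F are neighbours on chromosome 3, and of these only SEMA3B was called. SEMA3A, SEMA3C, SEMA3D and SEMA3E lie near each other on chromosome 7, and of these only SEMA3C was called. Differences between neighbours were not tested.

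In class 4, SEMA4F was at 10.1 and 9.33 CPM in control and at 4.66 and 5.71 CPM in knockdown cells (log2 fold change -0.91, SE 0.18, adjusted p = 0.0093). SEMA4G was at 6.37 and 7.75 CPM in control and at 4.62 and 4.53 CPM in knockdown cells (log2 fold change -0.63, SE 0.19, adjusted p = 0.0463). Of its exon length 22.9% is shared with MRPL43 on the opposite strand, so its value is uncertain if strand was not used in counting. SEMA4A, SEMA4B, SEMA4C and SEMA4D, the last being the ligand of PLXNB1, had log2 fold changes of 0.03, -0.02, 0.22 and 0.27 and were not called. SEMA5A and the GPI-anchored SEMA7A were not called, with log2 fold changes of -0.20 and -0.65, and SEMA5B had at most 2 counts. The DESeq2 Wald test did not call SEMA3C, SEMA4G or SEMA6D (adjusted p = 0.0929, 0.201 and 0.103).

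Plexins, the receptors of semaphorins, gave 3 falls and 0 rises among 9 tested genes, so 33.3% were called lower against 9.56% of all genes. PLXNB1, which binds SEMA4D, was at 38.1 and 37.2 CPM in control and at 18.2 and 21.8 CPM in knockdown cells (log2 fold change -0.91, SE 0.14, adjusted p = 0.0033). PLXNA3 was at 47.7 and 44.6 CPM in control and at 28.5 and 29.5 CPM in knockdown cells (log2 fold change -0.67, SE 0.13, adjusted p = 0.0080). PLXNA4 was at 30.6 and 32.0 CPM in control and at 22.4 and 19.4 CPM in knockdown cells (log2 fold change -0.58, SE 0.14, adjusted p = 0.0201). These 3 receptors were lower in both knockdown libraries, whereas their more abundant relative PLXNB2 was higher in both, at 184 and 199 CPM in control and 232 and 269 CPM in knockdown cells, but missed the threshold (log2 fold change 0.38, SE 0.14, adjusted p = 0.0835). PLXNA2 had the same log2 fold change as PLXNA4, -0.58, but its knockdown libraries stood apart at 16.3 and 30.3 CPM and it was not called (SE 0.23, adjusted p = 0.117). PLXNA1, PLXNB3, PLXNC1 and PLXND1 were not called, with log2 fold changes of 0.26, -0.46, 0.22 and 0.39.

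The neuropilins are the co-receptors of class 3 semaphorins, and NRP1 also binds VEGF. NRP1 was at 31.4 and 31.9 CPM in control and at 55.8 and 50.2 CPM in knockdown cells, a rise of 1.68-fold (log2 fold change 0.75, SE 0.13, adjusted p = 0.0052). Both knockdown libraries stood well above both controls. NRP2 stood at 17.8 and 18.7 CPM against 20.6 and 22.5 CPM and was not called (log2 fold change 0.24, adjusted p = 0.264).

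Eph receptors gave the largest rise. EPHA4 (ENSG00000116106, chr2:222282747-222438922 in GRCh37, minus strand), a receptor that binds ephrins of both classes, was at 12.3 and 10.2 CPM in control and at 30.9 and 35.9 CPM in knockdown cells, from 208, 201, 643 and 515 counts. Both knockdown libraries lay at more than 2 times either control. The rise was 2.97-fold (log2 fold change 1.57, SE 0.16, adjusted p = 0.00050). EPHA5 also rose, from 36.5 and 35.8 CPM in control to 64.1 and 51.4 CPM in knockdown cells (log2 fold change 0.68, SE 0.14, adjusted p = 0.0120). In fits scaled by library size alone EPHA5 and SEMA6D were not called (adjusted p = 0.0525 and 0.0649), which left 2 guidance genes called higher.

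Of the 7 tested EPHA genes these 2 rose and 0 fell, so 28.6% were called higher against 6.52% of all genes. EPHA8 had 32, 41, 15 and 19 counts and a log2 fold change of -1.02 that missed the threshold (SE 0.33, adjusted p = 0.0605). EPHA2, the EPHA gene with the highest TPM, stood at 20.5 and 23.1 CPM against 17.9 and 23.8 CPM, an overlap of the groups. EPHA3, EPHA6 and EPHA7 were not called, with log2 fold changes of -0.22, -0.17 and 0.09, and EPHA1 and EPHA10 had at most 10 counts in any library and were not tested.

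None of the 5 EPHB genes was called, and their log2 fold changes ran from -0.41 for EPHB2 to 0.10 for EPHB4, with EPHB1 at -0.07, EPHB3 at 0.03 and EPHB6 at -0.40. EPHB4 was at 116 and 132 CPM in control and at 112 and 154 CPM in knockdown cells, so the knockdown libraries enclosed both controls. The 2 rises in EPHA and the absence of calls in EPHB were not tested against each other.

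Of the ephrins, the ligands of these receptors, 1 of 8 tested genes fell and 0 rose, against 9.56% and 6.52% of all genes. So small a count does not set the ephrins apart from all genes. EFNA2, a GPI-anchored ephrin, was at 17.8 and 20.5 CPM in control and at 8.61 and 13.3 CPM in knockdown cells (log2 fold change -0.82, SE 0.20, adjusted p = 0.0221). EFNA5, the most abundant ephrin, was at 106 and 101 CPM in control and at 96.6 and 99.1 CPM in knockdown cells (log2 fold change -0.08, SE 0.12, adjusted p = 0.683). The remaining A ephrins EFNA1, EFNA3 and EFNA4 were not called, with log2 fold changes of 0.26, -0.17 and -0.29, and EFNA4-EFNA3 had 0 counts in each library. Of the transmembrane B ephrins, EFNB1 stood at 28.3 and 34.6 CPM against 26.4 and 32.8 CPM with overlap, and EFNB2 and EFNB3 had log2 fold changes of -0.35 and -0.43 and were not called.

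By role, 11 of the 33 tested ligands fell (33.3%) and 1 rose (3.03%). Of the 32 tested receptors, counting UNC5CL, 6 fell (18.75%) and 3 rose (9.38%). Over all genes tested 9.56% were called lower and 6.52% higher. The median log2 fold change was -0.29 over ligands and -0.07 over receptors. These shares and medians are descriptions, and the differences between ligands and receptors were not tested.

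**Figure D4:**
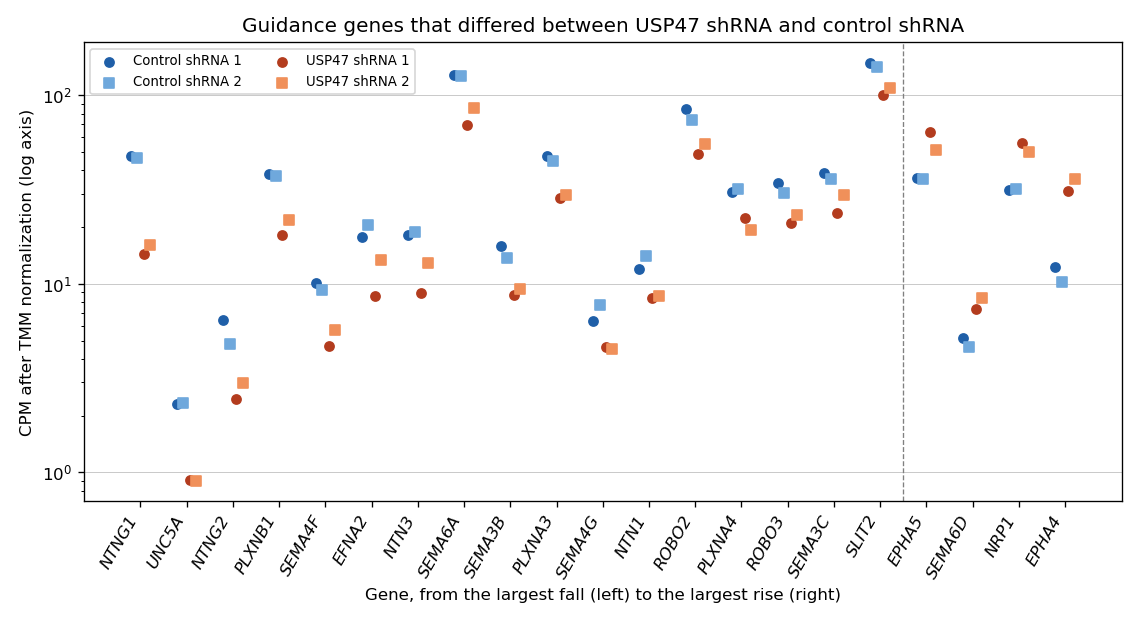
CPM after TMM normalization in each of the 4 libraries, on a log axis, for the 21 called genes from the largest fall to the largest rise; the dashed line separates the 17 falls from the 4 rises. Control libraries (blue) lie above both USP47 shRNA libraries (red and orange) in each gene left of the line and below both in each gene right of it.

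Partners and antagonists outside these families were listed apart. Of 28 other guidance cues, receptors and co-receptors, 20 were tested, 5 fell (25.0%, against 9.56% of all genes) and 0 rose, with a median log2 fold change of -0.09. LRRC4B, a relative of both netrin-G partners, was at 15.7 and 17.5 CPM in control and at 4.09 and 6.27 CPM in knockdown cells (log2 fold change -1.71, SE 0.21, adjusted p = 0.00097). Its relatives differed: LRRC4, the partner of NTNG2, was not called (log2 fold change 0.36, adjusted p = 0.114), and LRRC4C, the partner of NTNG1, had 1, 2, 3 and 3 counts. DRAXIN, a secreted protein that binds netrin and DCC, was low and fell from 41 and 42 counts to 4 and 6 (log2 fold change -2.96, SE 0.39, adjusted p = 0.0016).

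RGMA, a repulsive ligand of neogenin, was at 5.95 and 6.83 CPM in control and at 1.92 and 3.21 CPM in knockdown cells (log2 fold change -1.36, SE 0.25, adjusted p = 0.0066). Neogenin itself (NEO1) was at 59.3 CPM in both controls and at 59.8 and 65.4 CPM in knockdown cells (log2 fold change 0.08, adjusted p = 0.71). CXCR4, the receptor of CXCL12, fell from 16 and 20 counts to 3 and 4 (log2 fold change -2.26, SE 0.48, adjusted p = 0.0125). RGMA thus fell while its receptor did not pass the test. MET, a receptor kinase that associates with B-type plexins, had a log2 fold change of -0.53 (SE 0.14, adjusted p = 0.0298).

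Of 68 effectors below the receptors, 65 were tested, 9 fell and 2 rose, with a median log2 fold change of -0.10. In all 16.9% of them were called, a share near the 16.1% of all genes, and the genes below are given as single values. The called effector with the highest CPM was DPYSL2, a collapsin response mediator that acts on microtubules after semaphorin signals, at 314 and 332 CPM in control and 127 and 159 CPM in knockdown cells (log2 fold change -1.18, SE 0.15, adjusted p = 0.0013). Its relative CRMP1 fell by 1.17 on the log2 scale (adjusted p = 0.0022). MICAL1, an actin-oxidizing enzyme that binds A-type plexins, fell by 0.90 (adjusted p = 0.0031). Of their relatives, DPYSL3 was called lower (log2 fold change -0.51, adjusted p = 0.0236), whereas DPYSL4, DPYSL5, MICAL2 and MICAL3 were not called, with log2 fold changes of -0.08, -0.18, -0.38 and -0.17. DAPK1, a kinase that binds UNC5 receptors, fell by 0.85 (adjusted p = 0.0155). GIPC1, an adaptor of NRP1, rose by 0.73 (SE 0.16, adjusted p = 0.0149) and KALRN, a guanine nucleotide exchange factor, rose by 0.64 (SE 0.14, adjusted p = 0.0163).

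Guidance genes differed from other genes in make-up. The 66 tested genes had a median span of 61.9 kb and a median exon GC content of 56.6%, against 33.2 kb and 48.2% over 13639 tested protein-coding genes. The 17 that fell had a median GC content of 57.9% and the 4 that rose of 44.0%. Across the 66 genes the Spearman correlation between GC content and log2 fold change was -0.31, and across the protein-coding genes 0.04, a description over genes that share libraries and are not independent replicates. GC content also went with the ratio of replicate 2 to replicate 1, with Spearman correlations of 0.42 in control and 0.47 in knockdown libraries over the 66 genes, and of 0.40 and 0.51 over 13636 protein-coding genes. The ratio was over 1.5 between the knockdown libraries in 6 of the 66 genes and in 593 of the protein-coding genes, and between the control libraries in 0 and 210. It was under the inverse of 1.5 in 0 of the 66 genes in either group. Among the protein-coding genes it was so in 699 between the knockdown and in 267 between the control libraries. The part of GC content in the fold changes was not tested.

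Markers of other cell types were counted in the same fit, in which 9.56% of all genes were called lower and 6.52% higher. Of 12 mesenchymal markers 11 were tested and 3 fell (FN1, PDGFRA and COL1A1), with a summed level of 3846 and 3889 CPM in control and 3280 and 4374 CPM in knockdown cells. Of 12 neuronal markers 5 were tested and 1 fell (SNAP25), the sum was 35.6 to 40.5 CPM in control and 26.7 to 30.9 CPM in knockdown cells, and DCX, ELAVL4 and STMN2 had 0 counts. Of 8 endothelial markers 3 were tested and 2 fell (ESAM and CLDN5), with sums of 11.5 to 12.6 CPM in control and 6.97 to 7.55 CPM in knockdown cells, and CDH5 had at most 2 counts. Of 12 epithelial markers 5 were tested and 1 fell (EPCAM), with sums of 12.0 to 13.2 CPM in control and 9.69 to 12.3 CPM in knockdown cells. The falls of EPCAM, SNAP25 and CLDN5 rest on few counts. In control and then knockdown libraries, EPCAM had 12, 11, 3 and 3 counts. SNAP25 had 21, 19, 6 and 2, and CLDN5 had 27, 29, 17 and 5. Of 8 immune markers 4 were tested and 0 were called, with sums of 8.82 to 9.26 CPM in control and 6.27 to 7.69 CPM in knockdown cells. NEFL and PECAM1 were not analysed here. The part of such cells in the changes of guidance genes was not tested.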

How the data were processed

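The data were 2 Control shRNA and 2 USP47 shRNA RNA-Seq libraries of HGC-27, with groups as the labels give them. For every gene and library the authors deposited an unnormalized read count together with a TPM and an FPKM value. Per the study's methods and the submitters' processing notes, bases of quality under 20 were trimmed, reads were mapped to hg19 with STAR 2.7.5c, duplicates and low-quality reads were removed with SAMtools 1.9, featureCounts was used and DESeq2 1.26.0 was run. Removal of duplicates without molecular identifiers can lower the counts of abundant genes most. The labels name a stranded library kit and the methods another kit, and the strand setting of counting is not given in the sources used here. FPKM values were not used.

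Counts were tested in R 4.3.3 with edgeR 4.0.16 (filterByExpr with a minimum count of 10 and a total of 15, TMM scaling, robust quasi-likelihood fit, two-sided, Benjamini-Hochberg adjusted p under 0.05 over 21932 genes). The SE of a log2 fold change is its absolute value over the root of the F statistic. CPM values are after TMM normalization. TPM was used only to compare levels between genes, with no test. Of 63568 identifiers 55665 matched a symbol, and the rest held 4.82% to 6.06% of the counts. 7SL copies, mitochondrial genes and 1 unnamed identifier took 15.5% to 19.0% of a library. Positions, exon lengths and GC content came from GENCODE 44 lifted to GRCh37, and promoters from RefSeq (GRCh38.p14).

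Named with values were all called guidance genes, NTNG1, the gene with the highest mean TPM over 4 libraries in each of 11 families, tested genes with an absolute log2 fold change of at least 1 that missed the threshold, up to 5 called genes per direction of each of the 2 other lists with the smallest p, and USP47; 1 gene that this rule names is not reported here. SEMA6B, PLXNA2, the LRRC4 genes, NEO1, the DPYSL and MICAL relatives and the marker genes were added after their values were seen. The members and lists were chosen with earlier results of these data known. The test was tried on simulated data. Replicates of a group differed by more than sampling noise. Their chi-square per degree of freedom was 7.44 for the control and 27.8 for the knockdown libraries. Alternatives covered the test, scaling, filter, a minimum fold change, a replicate block, each library left out, and genes with little shared exon.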

Additional observations from a re-analysis of the deposited data

How the results depend on the processing

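Counts of guidance genes called were 21, of which 4 higher and 17 lower. They stayed within 1.5 times under legacy quasi-likelihood, DESeq2 size factors, no filter and removal of 7SL, mitochondrial and unnamed identifiers. The same held with at least 10 counts in every library, where 23 were called, EPHA8 among those that joined. It also held for the 20 called among genes that share under 10% of their exon length (chosen after seeing the data). Without UNC50, UNC5CL and EFNA4-EFNA3 (also chosen after seeing the data) 21 were called. The DESeq2 Wald test called 16 of the 21 and lost NTN1, SEMA3C, SEMA4G, SEMA6D and UNC5A. It called 2284 genes in all, 1171 of them lower, against 3527 and 2097 as reported. Scaling by library size alone left 2 guidance genes and 881 genes higher, against 4 and 1430. A minimum log2 fold change of 1 left 1 guidance gene (NTNG1, 0 higher and 1 lower) and 71 genes, of which 21 were higher and 50 lower.

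With the replicate number as a block, 34 guidance genes were called, 10 higher and 24 lower, and 7419 genes in all, 3529 higher and 3890 lower. All 21 were among them, and of the other named genes EPHA8, PLXNB2, UNC5B and UNC5D were gained (adjusted p = 0.00896, 0.00278, 0.019 and 0.0291). Replicate 1 of both groups deviated together with a correlation of 0.213 over genes. There are only 2 pairs, and no source says what the numbers mark. Whether libraries of the same number share a batch is therefore not known.

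Leaving out 1 library at a time gave 6 to 35 guidance genes, 1 to 14 higher and 5 to 28 lower, and 1233 to 7272 genes, 324 to 3773 higher and 909 to 3576 lower. Without USP47 shRNA replicate 1 EPHB4, PLXNB2 and UNC5B were gained, and without USP47 shRNA replicate 2 EPHA8 and SEMA3F. Each such fit took its spread from the group that kept 2 libraries. The knockdown libraries differed more from each other than the controls did. The cause was not tested. Of genes not called, 4 changed sign in log2 fold change: EFNB1 ran from -0.25 without USP47 shRNA replicate 2 to 0.067 without USP47 shRNA replicate 1, EPHA2 from -0.28 to 0.13, SEMA3F from -0.45 to 0.10 and EPHB4 from -0.14 to 0.32, each between the same fits, and without Control shRNA replicate 2 EFNB1 was at 0.06 and EPHA2 at 0.01. No called gene reversed under any alternative. UNC5D had no adjusted p in DESeq2 and no value with at least 10 counts required in every library. With 2 libraries a group, a difference that missed the threshold is not shown to be absent.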
